A study of Mus musculus with 64 samples.

Results

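The serotonin receptor genes described here are Htr1a, Htr1b, Htr1d, Htr1f, Htr2a, Htr2c, Htr4, Htr5a, Htr6 and Htr7, which encode G protein-coupled receptors for serotonin. They were taken from the annotation by gene name. Htr2b and Htr5b encode such receptors too and are outside this set. All 10 genes were measured, with 26 annotated transcripts, among 46686 gene names and 112714 transcripts. All 10 genes and 22 of their transcripts passed the filter on low values, a mean of at least 0.1 FPKM (a fragment count divided by transcript length and by the size of the library) over the libraries of either tissue. The filter left 36989 genes and 86331 transcripts.

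RNA depleted of ribosomal RNA was sequenced from the nucleus accumbens (NAc) and the prefrontal cortex (PFCx) of adult male C57BL/6N mice aged 8 to 10 weeks, 2 h after 1 intraperitoneal injection. The 64 libraries comprised 4 per drug and tissue and 8 saline libraries per tissue. The drugs were the antipsychotics haloperidol (1 mg/kg, a dopamine receptor blocker) and risperidone (0.5 mg/kg, which blocks dopamine and 5-HT2A receptors), the antidepressants mianserin (20 mg/kg, which blocks several serotonin and adrenergic receptors) and venlafaxine (16 mg/kg, an inhibitor of serotonin and noradrenaline uptake), the psychostimulant methamphetamine (2 mg/kg) and the psychotomimetic ketamine (20 mg/kg). The vehicle was saline, acidified with a little hydrochloric acid for haloperidol and risperidone, and control animals received saline. PFCx samples were dissected to hold cingulate, prelimbic and infralimbic cortex with part of the dorsal peduncular cortex. Whether a mouse gave both tissues, or a library held 1 animal, is not given in the sources used here, so the p-values measure the spread between libraries.

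Serotonin receptors fall into classes by the G protein they couple to. The 5-HT1 and 5-HT5 receptors act through inhibitory Gi/o proteins, which lower cyclic AMP and open GIRK potassium channels; the 5-HT2 receptors act through Gq and phospholipase C; and the 5-HT4, 5-HT6 and 5-HT7 receptors raise cyclic AMP through Gs or its striatal relative Golf. In the forebrain the serotonin itself comes from axons of raphe neurons, whose cell bodies, and so most of whose mRNA, lie outside both dissected tissues.

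The labels divide the saline libraries into set I and set II, 4 per tissue. The NAc libraries of haloperidol, risperidone and methamphetamine resembled saline set I in the number of transcripts above 0 FPKM, 85287 to 87827 per library over these 16 libraries. Those of mianserin, venlafaxine and ketamine resembled saline set II, with 107099 to 110556, and the PFCx libraries, at 108556 to 110852, did not show the division. The 2 groups of libraries are called sample sets I and II, and in the PFCx the drugs were placed as in the NAc. The 8 saline libraries of a tissue served together as the control, and the saline set of a drug's own sample set as an alternative. Each library rested on 1.52 to 3.26 gigabases of aligned sequence (median 2.39), estimated from its coverage.

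FPKM values below about 3 were not on the same footing in all libraries. The deposited tables also give each transcript's coverage, the estimated reads per base, and the ratio of coverage to FPKM was compared over levels within each library. Set to 100% for transcripts above 10 FPKM, the median ratio of coverage to FPKM in the 16 NAc libraries of set I was still 97.5% to 99% for transcripts of 0.1 to 0.3 FPKM. In the 16 NAc libraries of set II it was 27.8% to 51.3% at that level, and in the 32 PFCx libraries 24.6% to 43.1%. At 0.3 to 1 FPKM it was 99.2% to 100% in the first group and 68.8% to 84.8% in the others, and at 1 to 3 FPKM 100% to 101% and 84.3% to 92.3%. Of the members, Htr1d, Htr4, Htr6, Htr7 and Htr1f had a saline mean below 1 FPKM in the PFCx, and Htr1f and Htr7 in the NAc. The members were therefore measured a second time from coverage, divided in each library by the median ratio of coverage to FPKM of transcripts above 10 FPKM, which gives values in FPKM units (scaled coverage). This measure was chosen after the data were seen. Saline set II differed from set I in the NAc under both measures, by a median over all genes of 0.08 on the log2 scale in FPKM and -0.05 in scaled coverage, so neither measure was free of the set.

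Between the tissues, the receptor genes fell into 3 groups. In saline-treated mice Htr2c, Htr1b, Htr1d, Htr4 and Htr6 were higher in the NAc, Htr1a and Htr5a were higher in the PFCx, and Htr1f, Htr2a and Htr7 did not pass the test in either direction. By gene this was 7 of 10 called at an adjusted p under 0.05 (limma on log2(FPKM + 1), Benjamini-Hochberg adjustment over all genes tested), against 33.9% of all genes. The background was uneven, with 7.17% of all genes called higher in the NAc and 26.8% lower, and a median over all genes of -0.10. With scaled coverage 24.0% of all genes were called, 11.6% higher and 12.3% lower, the median was -0.01, and the same 7 members were called in the same directions. In bulk tissue, fewer cells that express a gene and less RNA per cell cannot be told apart.

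**Figure D1:**
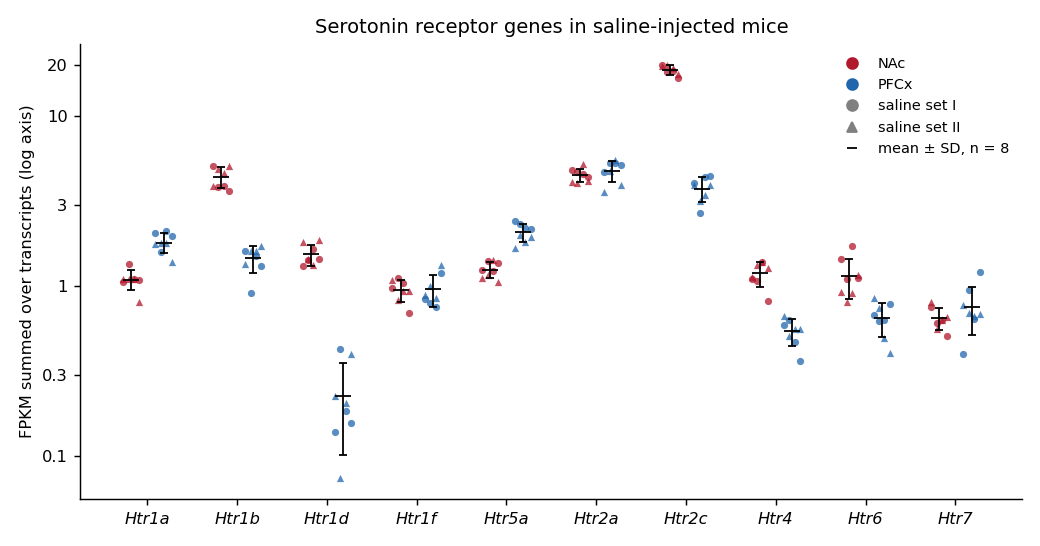
FPKM of the 10 serotonin receptor genes in each saline library (log axis), circles for saline set I and triangles for set II, red for NAc and blue for PFCx; black bars give the mean ± SD of 8 libraries. Htr2c stands highest in the NAc at 18.6 FPKM, and Htr1d lowest in the PFCx at 0.226 FPKM.

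Htr2c, which encodes the Gq-coupled 5-HT2C receptor, was the most abundant of the 10 genes in the NAc and showed the largest difference between the tissues on the log2(FPKM + 1) scale. Its level in the NAc ranged from 16.7 to 20 FPKM over the 8 saline libraries, with a median of 18.6. In the PFCx it ranged from 2.70 to 4.43 FPKM, with a median of 3.90. Every NAc library lay far above every PFCx library. The means, 18.6 ± 1.16 and 3.74 ± 0.606 FPKM (SD, n = 8 each), differed 4.99-fold, or by 2.06 on the log2(FPKM + 1) scale (SE 0.0739, 95% interval 1.90 to 2.22, limma adjusted p = 2.74e-12). Two-sided exact permutation of the 16 libraries gave p = 0.000155, the smallest that 8 against 8 libraries allow. From scaled coverage the means were 19.4 ± 1.22 and 2.85 ± 0.447 and the fold was 6.81. The gene is also known as a marker of the choroid plexus. The 10 other choroid plexus markers summed to 4.10 to 7.12 FPKM in the NAc saline libraries and 2.97 to 4.93 FPKM in those of the PFCx. Of these, 2 were called higher in the NAc, Clic6 at 2.17 ± 0.399 against 0.301 ± 0.212 FPKM (log2 difference 1.29, limma adjusted p = 1.53e-08) and Kl (0.18, adjusted p = 0.0329), and 3 were called lower, Prlr (-0.44), Folr1 (-0.42) and Ttr (-0.12). Of all genes 7.17% were called higher and 26.8% lower. Scaled coverage called 3 of these markers higher, Clic6 (1.51), Otx2 (0.26) and Kl (0.25), and 1 lower, Prlr (-0.09). In that measure the shares of all genes were 11.6% and 12.3%. Ttr, their defining gene, was at 0 to 0.0938 FPKM in the NAc and 0.0667 to 0.247 FPKM in the PFCx. The part of these cells in the Htr2c difference was not tested.

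Htr2c spans chrX:146962513-147197277 (GRCm38, + strand) and is annotated with 7 transcripts. Its RNA is known for a choice of splice site in the fifth exon of the main transcript, ENSMUST00000036303: use of the upstream site removes 95 bases, chrX:147169676-147169770, and leaves a shortened receptor. The same stretch holds the adenosines known to be edited by ADAR enzymes. The long form is shown with these 95 bases in capitals and 20 bases of its neighbours on each side, and the short form, ENSMUST00000156697, as the junction of the same neighbours; both were read from the GENCODE vM21 transcripts of GRCm38, which are genome reference sequence and hold no edited base.
Htr2c long form: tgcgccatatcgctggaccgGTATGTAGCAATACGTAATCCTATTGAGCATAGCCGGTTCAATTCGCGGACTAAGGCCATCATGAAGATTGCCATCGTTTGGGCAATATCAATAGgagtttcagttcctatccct
Htr2c short form: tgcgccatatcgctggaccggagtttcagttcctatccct

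Another coding transcript, ENSMUST00000112831, also lacks the 95 bases but joins a different last exon, so it does not carry the junction shown. The share of transcripts without the 95 bases did not differ detectably between the tissues. Among the 4 protein-coding transcripts, those with the 95 bases summed to 8.20 ± 1.11 FPKM in the NAc and those without to 2.21 ± 1.09 FPKM. Those without were 21.1% ± 10.3 of the coding sum in the NAc and 23.3% ± 18.5 in the PFCx (SD, n = 8 each, two-sided exact permutation p = 0.774). Single saline libraries ranged from 0.221% to 37.8% in the NAc and from 6.95% to 59.0% in the PFCx. Of the 24 comparisons of the share between a drug and saline, 2 reached p = 0.0286 by exact permutation, the smallest that 4 against 4 libraries allow. In the NAc against its own saline set, risperidone was higher by 18.1 percentage points, with libraries at 22.4% to 45.4% against 0.221% to 21.1% in saline set I. Mianserin was lower by 10.2 points, with libraries at 11.01% to 19.96% against 21.2% to 37.8% in saline set II. Against all 8 saline libraries the exact permutation p was 0.0869 and 0.432, and no p was adjusted for the 24 comparisons.

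Not all of the Htr2c signal came from protein-coding transcripts. A processed transcript of 648 bases that covers only the 5′ exons, ENSMUST00000134368, was at 5.93 ± 1.00 FPKM in the NAc and 0.556 ± 0.426 FPKM in the PFCx, a difference of 2.19 on the log2 scale (limma adjusted p = 1.58e-08 over all transcripts). The main coding transcript, ENSMUST00000036303, was at 8.10 ± 1.09 and 1.90 ± 0.381 FPKM, a difference of 1.65 on the log2 scale (limma adjusted p = 3.28e-09). Of the 7 transcripts of Htr2c, 5 were called higher in the NAc and none lower, the exceptions being ENSMUST00000112831 (adjusted p = 0.198) and ENSMUST00000096299 (adjusted p = 0.795). The coding transcripts together were 3.99-fold higher in the NAc, at 10.4 ± 0.860 against 2.61 ± 0.376 FPKM, and the other 3 transcripts 7.31-fold higher, at 8.23 ± 1.03 against 1.13 ± 0.50 FPKM. The coding share of the sum was therefore lower in the NAc, 55.9% ± 4.04 against 70.8% ± 9.99 (two-sided exact permutation p = 0.00218, a comparison chosen after the data were seen). Introns of Htr2c hold Snora35 and microRNA genes, and reads of these were not told apart from the transcripts that retain an intron.

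**Figure D2:**
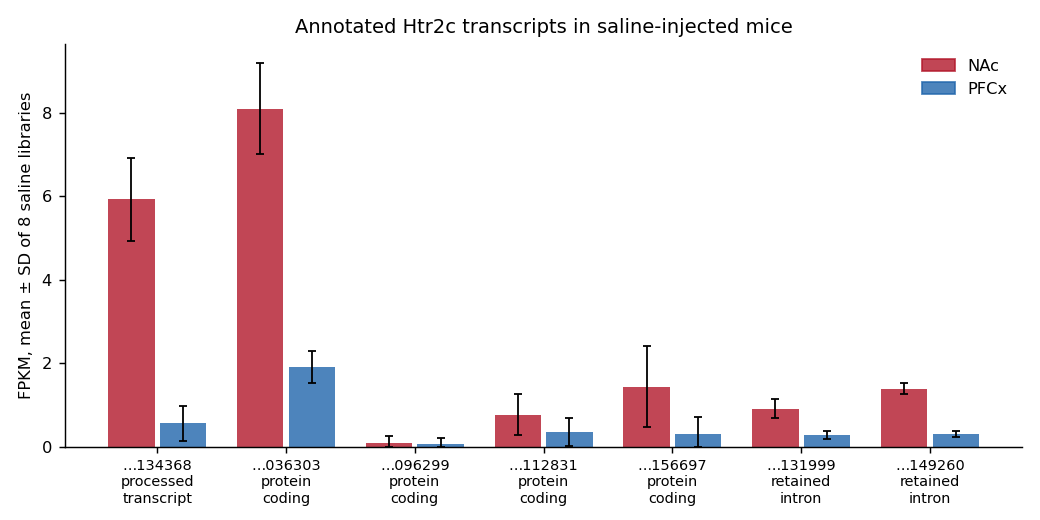
FPKM of the 7 annotated Htr2c transcripts in saline-treated mice, with the Ensembl number shortened and the annotated type below each; bars are means and error bars SD of 8 libraries, cut at 0, red for NAc and blue for PFCx. The 648-base processed transcript, at 5.93 FPKM in the NAc, stands second to the main coding transcript at 8.10 FPKM.

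Htr2a, the other Gq-coupled receptor of the 10 genes and the main target of risperidone among the serotonin receptors, did not differ detectably between the tissues. Its range was 4.00 to 5.21 FPKM with a median of 4.47 in the NAc, and 3.59 to 5.53 FPKM with a median of 4.94 in the PFCx. The difference was -0.07 on the log2 scale (95% interval -0.22 to 0.09, limma adjusted p = 0.499), and the tissues overlapped. It was second to Htr2c in the NAc and highest of the 10 genes in the PFCx, where the ranges of Htr2a and Htr2c overlapped. With scaled coverage the difference was -0.06.

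Among the Gi/o-coupled receptors, Htr1b and Htr1d, the receptors that act on axon terminals and are the targets of triptans, were higher in the NAc. Htr1b ranged from 3.62 to 5.09 FPKM with a median of 4.26 in the NAc and from 0.908 to 1.71 FPKM with a median of 1.55 in the PFCx. The difference was 1.13 (SE 0.0802, 95% interval 0.96 to 1.30, limma adjusted p = 1.01e-08), with means 3.01-fold apart and no overlap. Htr1b at chr9:81628291-81633828 (GRCm38, - strand) overlaps the antisense gene D430036J16Rik, and as the sources used here do not state strand-specific counting, reads of the pair cannot be told apart.

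Htr1d was the lowest of the 10 genes in the PFCx. Its range was 1.31 to 1.87 FPKM with a median of 1.44 in the NAc and 0.0739 to 0.428 FPKM with a median of 0.195 in the PFCx. The libraries did not overlap, and the difference was 1.05 (SE 0.0668, 95% interval 0.91 to 1.19, limma adjusted p = 2.52e-09), with means 6.78-fold apart. Scaled coverage left 0.0541 ± 0.0368 in the PFCx (SD, n = 8) against 1.36 ± 0.227 in the NAc, and a median of 0.187 aligned kilobases lay behind the PFCx value over all 32 libraries. In scaled coverage the fold of means was 25.2, so its size differed between the measures and its direction did not.

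Htr1a and Htr5a went the other way. Htr1a, the autoreceptor of raphe neurons and a receptor of cortical pyramidal cells, ranged from 0.806 to 1.35 FPKM with a median of 1.10 in the NAc and from 1.38 to 2.11 FPKM with a median of 1.79 in the PFCx. Htr5a ranged from 1.05 to 1.42 FPKM with a median of 1.24 in the NAc and from 1.67 to 2.41 FPKM with a median of 2.07 in the PFCx. For both genes every PFCx library lay above every NAc library. The differences were -0.42 for Htr1a (95% interval -0.55 to -0.30, limma adjusted p = 4.17e-05) and -0.44 for Htr5a (95% interval -0.56 to -0.33, limma adjusted p = 1.05e-05). With scaled coverage they were -0.34 (limma adjusted p = 0.00989) and -0.39 (limma adjusted p = 0.00524). In scaled coverage the ratio of NAc to PFCx means was 0.654 for Htr1a and 0.636 for Htr5a.

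Htr1f, another Gi/o-coupled receptor, was measured at nearly the same FPKM in both tissues, with ranges of 0.693 to 1.11 FPKM in the NAc and 0.751 to 1.32 FPKM in the PFCx. The 95% interval of the difference was -0.14 to 0.14 (limma adjusted p = 0.994). With scaled coverage the difference was 0.16 (limma adjusted p = 0.174), from means of 0.838 and 0.645. A difference of that size could not be separated from the spread in either measure.

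Of the Gs-coupled receptors, Htr4 and Htr6 were higher in the NAc. Htr4, on chromosome 18, ranged from 0.813 to 1.39 FPKM with a median of 1.20 in the NAc and from 0.364 to 0.665 FPKM with a median of 0.555 in the PFCx, without overlap. The difference was 0.50 (SE 0.0596, 95% interval 0.38 to 0.63, limma adjusted p = 5.57e-06) and the fold of means 2.19; with scaled coverage the fold was 3.67. Htr6, whose protein is found on neuronal cilia, ranged from 0.803 to 1.71 FPKM in the NAc and from 0.402 to 0.846 FPKM in the PFCx. Its libraries overlapped slightly, and the difference was 0.37 (SE 0.0812, 95% interval 0.20 to 0.55, limma adjusted p = 0.00234). Within saline set II alone the Htr6 difference was 0.27 (limma adjusted p = 0.0971), and within set I the 4 NAc libraries lay above the 4 PFCx libraries.

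Htr7 was low in both tissues, at 0.507 to 0.800 FPKM with a median of 0.628 in the NAc and 0.397 to 1.21 FPKM with a median of 0.687 in the PFCx. Its summed level did not pass the test (-0.08, 95% interval -0.24 to 0.07, limma adjusted p = 0.389). In the saline libraries the estimate divided it differently between its 6 transcripts in the 2 tissues. ENSMUST00000164639 made up 61.9% of the NAc sum and 11.1% of the PFCx sum. It was called higher in the NAc (log2 difference 0.37, limma adjusted p = 0.025). Over all 32 libraries of a tissue its means were closer, at 0.316 FPKM in the NAc and 0.211 FPKM in the PFCx. Its lower confidence bound was above 0 in 22 NAc and 14 PFCx libraries, so the division is uncertain. A median of 3.90 aligned kilobases per NAc library and 2.90 per PFCx library lay behind the whole gene.

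At the level of transcripts, 13 of the 22 tested were called between the tissues, against 13.7% of all transcripts tested. Htr1a, Htr1f, Htr2a, Htr4 and Htr5a have 1 tested transcript each, which carried the gene's value. Htr1d had 2 called coding transcripts, ENSMUST00000088677 at 0.908 ± 0.226 against 0.118 ± 0.0402 FPKM and ENSMUST00000117699 at 0.441 ± 0.378 against 0.00838 ± 0.023 FPKM, and a short processed transcript that was not called (limma adjusted p = 0.304). In saline the tested Htr7 transcripts annotated for nonsense-mediated decay were estimated higher in the PFCx, and neither passed the test. ENSMUST00000165215 was at 0.269 ± 0.256 against 0.0556 ± 0.122 FPKM in the NAc (limma adjusted p = 0.150). ENSMUST00000164781 was at 0.169 ± 0.331 against 0.031 ± 0.0578 FPKM (limma adjusted p = 0.454). Over all 32 libraries of a tissue ENSMUST00000165215 went the other way, with means of 0.113 FPKM in the PFCx and 0.132 FPKM in the NAc. Those of ENSMUST00000164781 were 0.158 and 0.046 FPKM. Exact permutation gave the smallest possible p of 0.000155 for the 6 genes whose tissues did not overlap, Htr1a, Htr1b, Htr1d, Htr2c, Htr4 and Htr5a, and p = 0.000311 for Htr6. Of all genes tested, 8.52% did not overlap between the tissues. Leaving out any 1 saline library kept 5 members called higher in the NAc and 2 called higher in the PFCx.

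The order of the members also differed between the tissues. In the NAc Htr2c lay clear of Htr2a, and Htr1b clear of Htr1d, while each of the other neighbours in the order Htr2c, Htr2a, Htr1b, Htr1d, Htr5a, Htr4, Htr6, Htr1a, Htr1f, Htr7 overlapped with the next. In the PFCx the order was Htr2a, Htr2c, Htr5a, Htr1a, Htr1b, Htr1f, Htr7, Htr6, Htr4, Htr1d, and of neighbouring genes only Htr2c and Htr5a did not overlap.

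Cell type markers were read as a check of the labelled tissues. All 10 markers of striatal projection neurons were higher in the NAc and 9 of 10 markers of cortical projection neurons higher in the PFCx, the exception being Bcl11b, which striatal neurons also express. All 5 oligodendrocyte markers were higher in the NAc (median log2 difference 1.95). In 4 of the 32 PFCx libraries the summed striatal markers stood at 69.0 to 106 FPKM against 33.4 to 52.8 FPKM in the other 28 and 639 to 853 FPKM in NAc saline. Saline set II replicate 4 was the highest of them, and its Htr2c and Htr1b, at 3.89 and 1.71 FPKM, lay within or at the top of the PFCx saline range. The others were risperidone replicate 3 and ketamine replicates 1 and 3. Over all PFCx libraries Htr1b reached 2.06 FPKM, in the ketamine group. The part of neuronal and glial composition in the differences between the tissues was not tested.

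Of the 7 members called in saline, all but Htr6 kept their direction under each of the 6 drugs. Htr2c, Htr1b and Htr1d were higher in the NAc under all 6 drugs, and each was called in 6 of 6. Over all pairs of a gene and a drug 26.7% were called. The differences ranged from 1.97 with methamphetamine to 2.22 with venlafaxine for Htr2c, from 0.94 to 1.27 for Htr1b and from 0.77 to 1.32 for Htr1d. Htr5a was higher in the PFCx and called under 6 of 6 drugs (-0.69 to -0.49), and Htr1a was higher in the PFCx under 6 of 6 and called in 4 (-0.48 to -0.21). In scaled coverage both stayed higher in the PFCx, with differences of -0.82 to -0.30 for Htr5a and -0.55 to -0.03 for Htr1a. There the Htr1a difference was -0.14 with haloperidol and -0.03 with risperidone and with methamphetamine. Htr4 was higher in the NAc under 6 of 6 drugs and called in 5; under haloperidol the difference was 0.11, against 0.55 under mianserin. With scaled coverage the Htr4 difference was 0.41 to 0.61 over the 6 drugs. Htr6 was higher in the NAc under 5 drugs and called under 1, and Htr1f, Htr2a and Htr7 under none. In scaled coverage Htr6 was higher in the NAc under 5 drugs, with a range of -0.03 to 0.57 over the 6. The ranges were -0.04 to 0.46 for Htr1f, -0.17 to 0.08 for Htr2a and -0.02 to 0.23 for Htr7.

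**Figure D3:**
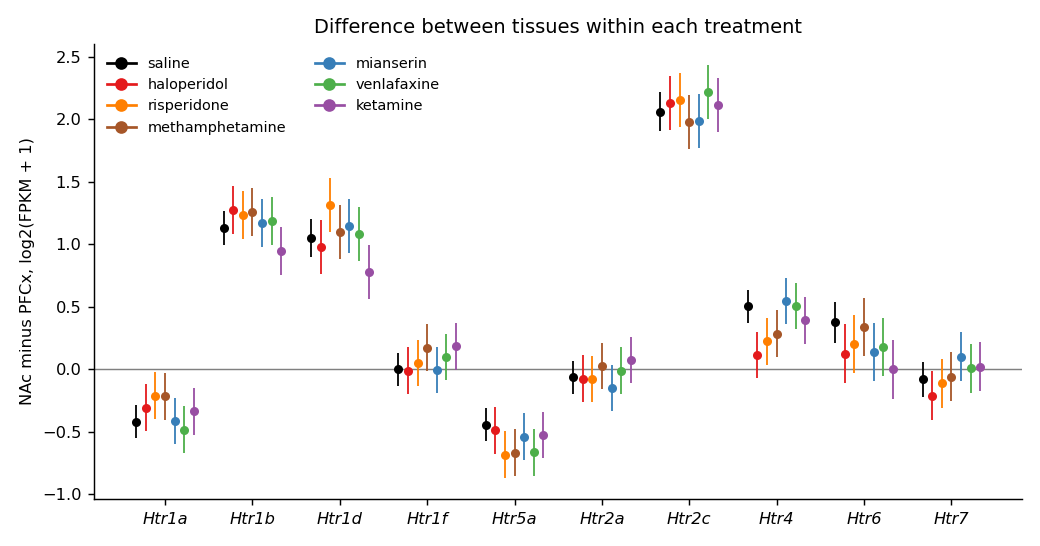
Difference NAc minus PFCx in log2(FPKM + 1) for each receptor gene, 1 point per treatment in the colours of the legend, with 95% intervals from limma (8 libraries per tissue for saline, 4 for each drug). Htr2c lies between 1.97 and 2.22 under the 6 drugs, and Htr4 under haloperidol is at 0.11.

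The genes on either side of the receptors were examined from lists chosen with earlier results of these data known. Of 23 G protein subunits and effectors, 2 were called higher in the NAc and 11 lower, against 7.17% and 26.8% of all genes. The list median was -0.10, as for all genes. The 2 were Adcy5 (2.68), the main striatal adenylyl cyclase, and Gnal (2.04), which encodes Golf. Adcy1 (-1.72), another adenylyl cyclase, the GIRK channel genes Kcnj6 (-1.35), Kcnj9 (-1.32) and Kcnj3 (-1.29) were higher in the PFCx. Scaled coverage called 6 of the 23 higher and 11 lower, against 11.6% and 12.3% of all genes.

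Of 14 receptor partners and RNA editing enzymes, none was called higher in the NAc and 5 were called lower. Scaled coverage called 0 higher and 4 lower. For this list and the next, the shares of all genes were 7.17% higher and 26.8% lower in FPKM. In scaled coverage they were 11.6% and 12.3%. S100a10 (p11), which binds the 5-HT1B and 5-HT4 receptors, differed by -1.71. Mpdz, a scaffold that binds the 5-HT2C receptor, differed by -1.07. The editing enzyme genes Adar, Adarb1 and Adarb2 were not called. Of 12 genes for serotonin synthesis, transport and breakdown, 3 were called higher in the NAc and 5 lower, among them Qdpr (0.68), which recycles the cofactor of tryptophan hydroxylase, and Maoa (-0.41) and Maob (-0.35), which break serotonin down. With scaled coverage the counts were 4 and 2, with Maoa at -0.17 (limma adjusted p = 0.000168) and Maob at -0.27 and not called (0.0561). Tph2 and Slc6a4, which define serotonergic neurons, were at 0.158 ± 0.133 and 0.173 ± 0.164 FPKM in the NAc (SD, n = 8 each). Tph2 was called lower in the NAc in FPKM (-0.33) and not in scaled coverage (-0.04, limma adjusted p = 0.146). Of the other serotonin receptor genes, Htr3a, a subunit of the serotonin-gated ion channel, was lower in the NAc, at 0.301 ± 0.107 against 0.965 ± 0.191 FPKM (-0.59, limma adjusted p = 2.62e-06), and Htr2b, Htr3b and Htr5b were not called.

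The second question was whether any of the drugs changed the receptor genes within 2 h. Against all saline libraries, 1 of the 60 pairs of a gene and a drug was called in the NAc, where 1.21% of all such pairs were called, and 0 of 60 in the PFCx, where 0.287% were called. A share of 1 in 60 is near the background. At an unadjusted limma p under 0.05 there were 8 pairs for NAc and 4 for PFCx, and against the own saline set 8 and 7, with none called after adjustment (background 0.294% and 0.768%). With scaled coverage and limma 0 of 60 pairs were called in the NAc (background 0.702%) and in the PFCx (0.319%), and 0 of 60 against the own saline set (0.282% and 0.985%). By transcript, 0 pairs were called in either tissue, where 0.193% and 0.107% of all pairs were called. No pair differed by more than 0.5 on the log2(FPKM + 1) scale. This scale compresses ratios of FPKM at low levels. With 0.1 in place of 1 added to FPKM, Htr4 with haloperidol in the NAc was at -0.77. The largest differences were 0.38 for NAc and 0.27 for PFCx, at a median SE of 0.0821 and 0.0873, and the 95% intervals of all 60 pairs lay between -0.56 and 0.43 in the NAc and between -0.42 and 0.42 in the PFCx.

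**Figure D4:**
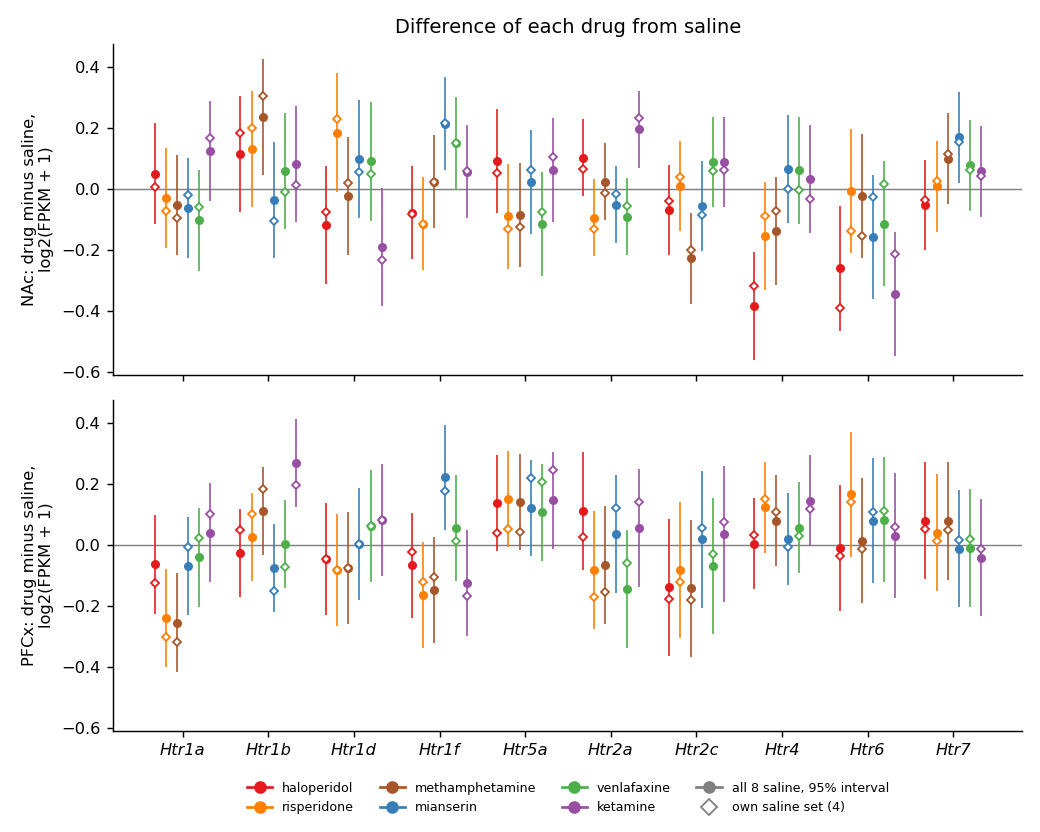
Drug minus saline in log2(FPKM + 1) for each receptor gene in NAc (upper) and PFCx (lower). Filled points with 95% intervals are against all 8 saline libraries and open diamonds against the 4 libraries of the own saline set; only Htr4 with haloperidol in the NAc, at -0.38, was called.

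The called pair was Htr4 with haloperidol in the NAc. The 4 haloperidol libraries had 0.527, 0.797, 1.03 and 0.393 FPKM. Saline set I had 1.10, 1.07, 1.38 and 0.813 FPKM, and saline set II had 1.13, 1.33, 1.39 and 1.28 FPKM. Of the haloperidol libraries 3 lay below every saline library and 1 within their range. The means, 0.688 and 1.19 FPKM, gave a ratio of 0.579 and a difference of -0.38 (SE 0.0864, 95% interval -0.56 to -0.21, limma adjusted p = 0.0284), where 0.195% of all genes were called lower with haloperidol. Exact permutation of 4 against 8 libraries gave p = 0.00404.

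This call was lost against the own saline set and in scaled coverage. Against saline set I alone, the set of the haloperidol libraries, the difference was -0.32 (SE 0.098, limma adjusted p = 0.343). With a block for each sample set and replicate number it was again -0.32 (limma adjusted p = 0.314). That block also sets haloperidol against saline set I, so it is not a separate check. In scaled coverage the haloperidol libraries had a mean of 0.716 ± 0.327 (SD, n = 4), saline set I 1.11 ± 0.241 and saline set II 1.01 ± 0.0761, and the difference from all saline was -0.28 (limma adjusted p = 0.115). Htr4 scaled coverage was 102% of its FPKM in saline set I, 104% with haloperidol and 78.6% in saline set II. The other 5 drugs had mean scaled coverage of 0.982 (venlafaxine) to 1.04 (risperidone) in the NAc. The call was also lost without haloperidol replicate 1 (limma adjusted p = 0.123) or 4 (0.160), or without saline set II replicate 2 (0.0574), 3 (0.0589) or 4 (0.0532). Summed markers of cortical projection neurons were at 88.5 to 109 FPKM in the haloperidol libraries. In NAc saline they were at 76.7 to 95.3 FPKM in set I and 48.2 to 68.2 FPKM in set II. Striatal markers were at 693 to 805 FPKM with haloperidol, against 694 to 815 FPKM in saline set I and 639 to 853 FPKM in set II. The part of these markers in the result was not tested.

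In the PFCx Htr4 with haloperidol differed from saline by 0.00 (95% interval -0.15 to 0.15, limma adjusted p = 0.991). The difference of the haloperidol effect between the tissues was 0.39 (95% interval 0.16 to 0.62, limma adjusted p = 0.266). Over the 6 drugs the effects on Htr4 differed between the tissues by the moderated F test (limma adjusted p = 0.0473), where 12.9% of all genes did so. The call remained in 24 of the 64 fits that left out 1 library. Against the own saline sets the adjusted p was 0.792, where 0.752% of all genes were called, and with scaled coverage 0.653, where Htr1d was called (0.0147) and 3.05% of all genes were. No single difference between the tissues was called in 60 pairs (background 0.087%, or 0.397% against the own saline sets).

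**Figure D5:**
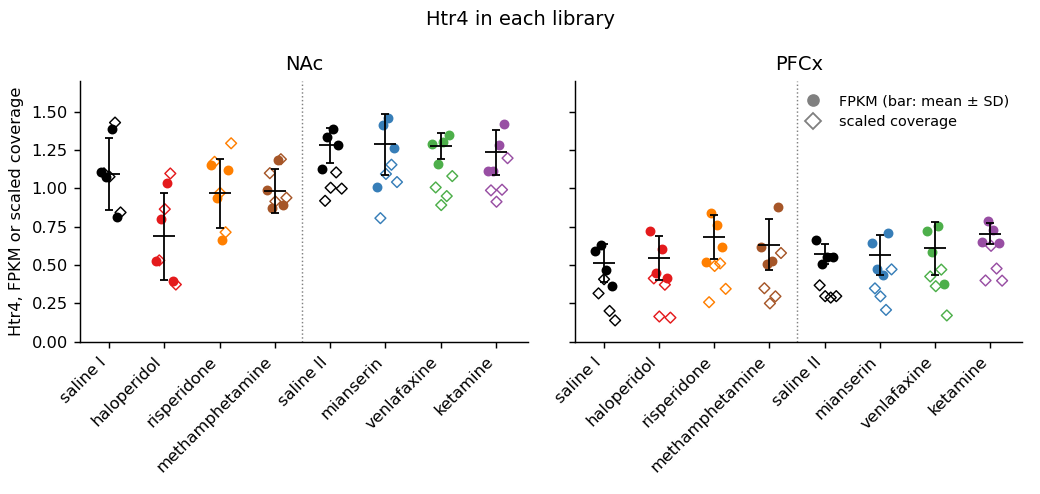
Htr4 in each library of the NAc (left) and PFCx (right), by treatment, with sample set I to the left of the dotted line and set II to the right. Filled circles are FPKM, with black bars for the mean ± SD of 4 libraries, and open diamonds are scaled coverage in FPKM units, which lies below FPKM in NAc set II and the PFCx and near it in NAc set I.

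By the moderated F test over the 6 drugs, 4 members were called in the NAc: Htr4 (limma adjusted p = 0.00487), Htr2a (0.0125), Htr1f (0.0257) and Htr2c (0.0343), where 37.0% of all genes were called. Against the own saline sets none of the 10 was called, where 1.61% of all genes were, and the lowest adjusted p was 0.0913 for Htr2a. With scaled coverage 4 members were called, against 20.7% of all genes, and only Htr2a was common to both lists; the others were Htr1d, Htr5a and Htr6. For PFCx none of the 10 was called, against 3.35% of all genes, and Htr1b had the lowest limma adjusted p at 0.0909. Against the own sets 1.45% of all genes were called there, and with scaled coverage 2.82%, again with no member.

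Which saline libraries served as the control decided which pairs were called. With saline set I alone as the control of all 6 drugs, limma called Htr6 with ketamine (-0.48, adjusted p = 0.00265) and mianserin (-0.29, 0.0478) in the NAc and Htr1b with ketamine in the PFCx (0.35, 0.0171). With saline set II alone it called Htr4 with haloperidol (-0.45, 0.00181) and Htr2c with methamphetamine (-0.26, 0.0324) in the NAc. Each of these pairs set a drug of one sample set against saline of the other, and none was called against its own set. Leaving out 1 library likewise added calls with ketamine in the NAc, for Htr6 without replicate 1, 2 or 3 of saline set II (limma adjusted p = 0.0416, 0.0345 and 0.0419) and for Htr2a without replicate 3 (0.0371).

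For the remaining pairs the values are given without a change being called. In the PFCx the 4 ketamine libraries had 1.77 to 2.06 FPKM of Htr1b, above all 8 saline libraries at 0.908 to 1.71 FPKM. The difference was 0.27 (95% interval 0.13 to 0.42, limma adjusted p = 0.283), or 0.20 against the own saline set (adjusted p = 0.247), and exact permutation gave p = 0.0101. It was the only non-overlapping pair of 60 in the PFCx, where 1.05% of all pairs did not overlap. With scaled coverage the difference was 0.34 (limma adjusted p = 0.169). Summed striatal markers were at 73.2 and 69.0 FPKM in ketamine replicates 1 and 3 and at 35.5 and 35.8 FPKM in replicates 2 and 4. The part of striatal tissue in this pair was not tested.

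In the NAc the only such pair was Htr1f with mianserin, with 1.12 to 1.53 FPKM in the mianserin libraries against 0.693 to 1.11 FPKM in saline; 1.39% of all pairs in the NAc did not overlap. The difference was 0.21 (95% interval 0.06 to 0.37, limma adjusted p = 0.108). With scaled coverage it was 0.08 against all saline and 0.18 against the own saline set (limma adjusted p = 0.722 and 0.893).

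Htr1a in the PFCx was at 1.19 to 1.47 FPKM with methamphetamine and 1.28 to 1.47 FPKM with risperidone. Saline set I, their own set, was at 1.58 to 2.11 FPKM, without overlap, and saline set II at 1.38 to 1.79 FPKM, with overlap. The differences from all saline were -0.26 and -0.24 (limma adjusted p = 0.240 and 0.155) and from the own set -0.32 and -0.30 (0.273 and 0.321). Against the own set, 5 of 60 pairs in the PFCx did not overlap, where 5.22% of all pairs did not, and 3 of 60 in the NAc, where 3.60% did not.

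Htr6 with ketamine in the NAc was at 0.46 to 0.87 FPKM against 0.803 to 1.71 FPKM in saline, a difference of -0.34 (95% interval -0.55 to -0.14, limma adjusted p = 0.0613). Saline set I held the higher saline values, and against saline set II the scaled coverage difference was -0.25 (limma adjusted p = 0.556). Htr2c with methamphetamine in the NAc was at 13.4 to 18.1 FPKM against 16.7 to 20 FPKM in saline (-0.23, limma adjusted p = 0.260). Htr2a with ketamine in the NAc was at 4.87 to 5.89 FPKM against 4.00 to 5.21 FPKM (0.20, limma adjusted p = 0.0809).

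For drugs that bind serotonin receptors or the transporter, intervals bound the size of an mRNA difference at 2 h. Htr2a in the NAc differed by -0.09 with risperidone (95% interval -0.22 to 0.03) and by -0.05 with mianserin (-0.18 to 0.08). Htr2c in the NAc differed by 0.01 with risperidone (-0.14 to 0.16) and by -0.06 with mianserin (-0.20 to 0.09). With venlafaxine Htr1a differed by -0.10 in the NAc (-0.27 to 0.06) and by -0.04 in the PFCx (-0.20 to 0.12).

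No member was called between saline set II and saline set I in FPKM, where 17.3% of all genes were called in the NAc and 6.58% in the PFCx. Htr6 came nearest in the NAc (limma adjusted p = 0.0973) and Htr5a in the PFCx (0.106), where its sets did not overlap. With scaled coverage 1 member was called in the NAc, Htr5a (limma adjusted p = 0.0171), at 1.39 ± 0.0339 in set I and 0.902 ± 0.144 in set II (SD, n = 4 each), where 7.35% of all genes were called; in the PFCx none was, against 4.87%.

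The genes most like each receptor were sought over the 32 libraries of a tissue after the mean of each group was taken away, so that what remains is variation between libraries of a group, shared by all genes of a library; the r values are a description. In the NAc Htr1b went with Adra2c (Pearson r = 0.809) and Adcy5 (0.765), out of 15089 genes. Adcy5 is itself a gene of striatal projection neurons. Htr5a went with Nr4a2 (0.761), Cdh12 (0.760) and Scube1 (0.749), and its r with Htr1b was -0.54. Htr2c went with Dkk3 (0.646) and Arhgef28 (0.621), and its r with the summed choroid plexus markers was -0.43. For Htr1a the nearest were Tmem25 (0.741), Rasal2 (0.739) and Rap1gap2 (0.727), and for Htr4 Dhx33 (0.730), Pigl (0.715) and Tgfb1 (0.698). Htr1d went with Meis3 (0.713), Amer2 (0.675) and Dnajb1 (0.674). Highest for the other members were Iqcc for Htr1f (0.712), Pnpla8 for Htr2a (0.675), Pla2g16 for Htr6 (0.715) and Gm10254 for Htr7 (0.795).

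The PFCx gave other neighbours, out of 15694 genes. Htr1a went with Pcsk7 (0.775), Mtfr1l (0.717) and Atf5 (0.712), and Htr5a with Abcc1 (0.739), Ppp1r16b (0.650) and Ube2l6 (0.641). Htr4 went with Mt2 (0.734), and Htr1b, without a striatal gene among its first 3, with Spata24 (0.650), Snx12 (0.642) and Gm26527 (0.634).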

How the data were processed

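The authors aligned the reads with TopHat 2.0.1 and Tmap 3.0.2 to mm10 (GRCm38) and estimated transcripts with Cufflinks 2.2.1 and an Ensembl annotation, per the labels and the methods. The deposited tables hold FPKM per transcript for each library, with confidence bounds, and coverage, an estimated read depth per base that is not scaled to the library. They hold no read counts, so the depth behind a value was estimated from coverage.

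FPKM was summed over the transcripts of a gene name. Tests used log2(FPKM + 1), genes with a mean of at least 0.1 FPKM in either tissue, and limma 3.58.1 in R 4.3.3, with Benjamini-Hochberg adjustment over all genes or transcripts and a threshold of 0.05. The fits were tested on simulated data. Exact permutation tests were two-sided and took every split of the libraries, in Python 3.11.15. The test of the Htr2c coding share used the routine of scipy 1.17.1. The tissue comparison used the 16 saline libraries, each drug comparison the 32 libraries of a tissue, and the difference between tissues all 64. Groups came from the labels; the sample set of a drug was read from the number of transcripts above 0 in the NAc. Alternatives changed the pseudocount, filter, scaling, transcript sum, model, control libraries and replicate block, left out each library in turn, or used coverage.

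The members and lists were chosen with earlier results of these data known. The rule for names took all 10 members and their transcripts averaging at least 0.1 FPKM; genes of other lists where they were called, at most 6 a list and largest difference first, or define a list; and the 3 genes with the highest r with each member, of which some are not reported here. Genes singled out beside these were chosen after their values were seen. Same-numbered libraries deviated together (r over 0.1) in 24 of 24 pairs of NAc set I, 23 of 24 of PFCx set I, 16 of 24 of NAc set II and 13 of 24 of PFCx set II, with mean r of 0.232, 0.344, 0.126 and 0.165. The criterion for pairing, r over 0.1 in every pair, was met in NAc set I only.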

Additional observations from a re-analysis of the deposited data

Results flagged for a closer look

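In 5 of the 140 groups formed by gene, tissue and treatment (3.57%), with 4 libraries a drug and 8 for saline, 1 library stood far from the others; chance flags about 1 in 20 groups. Htr1a in the PFCx was at 2.01 FPKM in mianserin replicate 1, against 1.55 to 1.56 FPKM in the others. Htr1b in the NAc was at 5.28 FPKM in risperidone replicate 2, against 4.66 to 4.76 FPKM. Htr1d in the NAc was at 1.74 FPKM in haloperidol replicate 2, against 1.15 to 1.24 FPKM, and at 1.38 FPKM in venlafaxine replicate 2, against 1.79 to 1.81 FPKM. Htr2a in the PFCx was at 4.07 FPKM in haloperidol replicate 4, against 5.45 to 5.73 FPKM. Haloperidol replicate 2 in the NAc is also 1 of the 4 libraries behind the called Htr4 difference, with 0.797 FPKM of Htr4.

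The drug effects on Htr4 differed between the NAc and the PFCx by the moderated F test (limma adjusted p = 0.047). With the saline sets kept apart the adjusted p was 0.792.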

How the results depend on the processing

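Coverage in place of FPKM, chosen after the data were seen, kept the 7 called tissue differences. It left 0 called drug pairs in the NAc, 7648 genes called by F in the NAc and 1127 by the F of the difference between tissues. The FPKM fits had called 1 pair, 13677 genes and 4762 genes.

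Under the other alternatives, Htr7 reversed with its highest transcript only, to 0.37 (limma adjusted p = 0.0132), and Htr6 between tissues was 0.27 with saline set II only. Genes called between tissues were 12556, against 7115 at a mean FPKM of at least 1 and 7719 with saline set II only. Called NAc pairs were 0 with the replicate block and with the own saline set, and 2 with either saline set alone. In the drug fits this block joins sample set and replicate number, so it too compares each drug with its own saline set. Called NAc members by F were 4, against 6 under 75th percentile scaling, 5 with saline set I only, 3 with the highest transcript only, 2 at a mean of at least 1 and 0 with the replicate block and the own set; genes were 4945, 878 and 597. PFCx pairs were 1 with saline set I only. PFCx members by F were 2 under 75th percentile scaling and with set II only, and 1 with all 64 libraries in one model and with set I only; genes were 1240, against 2636 with all 64, 2338 with set I, 4174 with set II and 536 with the own set. For the difference between tissues, pairs were 1 with either saline set alone. Members by F were 1, against 0 at a pseudocount of 0.1, a mean of at least 1, the highest transcript, a mean-variance trend, the replicate block, saline set I and the own set. Genes were 7732 at a pseudocount of 0.1, 608 at a mean of at least 1, 2813 with the highest transcript, 2807 with the block, 7463 with set I, 7657 with set II and 278 with the own set. Transcripts called between tissues were 8 at a mean of at least 1, and NAc transcript pairs 1.

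Leaving out 1 library gave 0 to 2 NAc pairs, 0 to 1 PFCx members by F and 0 to 1 members by F of the difference between tissues. The replicate block changed no other call of a member. The causes were not tested.

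Low values limit these results: Htr1d and Htr4 in the PFCx, and Htr1f, Htr6 and Htr7 in both tissues, had medians of at most 5.25 aligned kilobases per library.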

Other observations

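Against all saline libraries 1 of the 14 receptor partners and editing enzymes was called in the NAc, Dlg4, higher with ketamine (0.28), where 1.43% of all genes were called higher, and none against the own saline set. Of the 23 G protein subunits and effectors 1 was called higher in the NAc with haloperidol (Gnaz, 0.32; 0.527% of all genes), 1 with ketamine (Gnai1, 0.24; 1.43%) and 1 with risperidone (Adcy9, 0.24; 0.443%), and 1 in the PFCx with mianserin (Adcy9, 0.30; 0.346%). Against the own saline set Gnai1 was called higher with ketamine in the NAc (0.28; 0.338% of all genes) and Adcy9 with mianserin in the PFCx (0.28; 0.538%). A single gene of a list does not set the list apart from these shares. With ketamine in the NAc 4 of 5 oligodendrocyte markers were called higher than the own saline set (0.338% of all genes) and 2 of 5 higher than all saline (1.43%), and all 5 were called lower in saline set II than in set I.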
